A study of Homo sapiens with 9 samples.

Results

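The 10 genes described here are 7 matrix metalloproteinases (MMP1, MMP7, MMP10, MMP13, MMP14, MMP15 and MMP24) and 3 tissue inhibitors of metalloproteinases (TIMP1, TIMP2 and TIMP3), of 27 MMP and TIMP genes listed and of 60880 gene IDs in the count files. They were matched by symbol to the Ensembl IDs. The members were chosen by a list drawn up with their measured values in all 3 groups in view, so their levels and differences are given as a description with no p-value, and counts of members past a limit are read as nothing more. Poly-A RNA of SNU5 cells was sequenced after 24 h with AuNR-PEG-Ab, a gold nanorod linked through polyethylene glycol to the antibody Ramucirumab (NR group), with AuSP-PEG-Ab, the same antibody on a gold nanosphere (SP group), or with Ramucirumab alone (Ab group). SNU5 is an established human gastric carcinoma line, and the antibody, which binds the VEGF receptor VEGFR2, was given at 8 μg/mL in all 3 groups. Each group had 3 libraries, numbered 1 to 3, and the question was how the cells that received the antibody on gold differed from those that received it free, and how rods differed from spheres. No library of untreated cells, or of particles without antibody, was analysed here, so the particle and the form in which the antibody was given cannot be told apart. The study calls its replicates biological and its in vitro work independently repeated, while the labels do not say how the cultures behind the 3 libraries of a group were made, and each p-value measures the spread between these libraries.

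The counts of libraries 1, 2 and 3 summed to 25735410, 13863155 and 15943980 in the NR libraries, 21682836, 22914759 and 20601906 in the SP libraries, and 19566064, 26318227 and 21031024 in the Ab libraries. Levels are given as CPM (counts divided by the library total, on the usual scale), and a floor of 3 counts, the largest expected count that a count of 0 allows, came to 0.114 to 0.216 CPM. The NR1 and Ab3 libraries stood apart from the others of their groups in a few stromal genes. COL1A2, a fibrillar collagen chain, had 37, 0 and 0 counts in the NR libraries and 198, 278 and 33 in the Ab libraries, and PDGFRA, a receptor for platelet-derived growth factor, had 58, 0 and 0 counts in the NR libraries. The counts of called genes in the lists below are therefore also given without NR1 and Ab3, an alternative chosen after seeing the data. Over all genes it was Ab1 that differed most in its group, with a chi-square per gene of 7.43 to Ab2 and 6.95 to Ab3, against 2.17 between Ab2 and Ab3. Without Ab1, 3 members were called in NR and 3 in SP, as with it. Of the markers of gastric epithelium, KRT8, KRT18, CLDN4, CLDN7 and MUC1 were well detected, whereas KRT19, TFF1 and TFF2 had at most 1, 4 and 5 counts in any library. KDR, which encodes VEGFR2, had 1 count in NR3 and 0 in the other 8 libraries.

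Matrix metalloproteinases are zinc endopeptidases that cut collagens, laminins, fibronectin and many cell surface proteins. They are made as inactive proenzymes, are opened by furin-like convertases, plasmin or other MMPs, and are blocked by TIMPs, which bind the active site. In gastric and intestinal carcinoma MMP7 (matrilysin) is made by the tumour cells themselves, whereas most other secreted MMPs come chiefly from stromal and inflammatory cells. MMP14, MMP15 and MMP24 are membrane-type enzymes held at the cell surface.

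MMP7 was nearly silent with the free antibody and clearly present with either particle. Its counts were 350, 194 and 249 in the NR libraries, 256, 286 and 255 in the SP libraries, and 4, 4 and 3 in the Ab libraries. In CPM these were 13.6, 14.0 and 15.6 in the NR libraries, 11.8, 12.5 and 12.4 in the SP libraries, and 0.204, 0.152 and 0.143 in the Ab libraries. All 6 particle libraries lay far above the 3 Ab libraries, and all 3 NR libraries lay above the 3 SP libraries. How many of all genes separate NR from SP in this way was not counted, so nothing is read from the latter. The ratio of pooled CPM was 86.9 for NR to Ab (95% exact counting interval 48.3 to 175) and 74.4 for SP to Ab (41.3 to 150), intervals that cover counting error only. The fitted log2 difference was 6.37 ± 0.23 (SE, 3 libraries a group) in NR and 6.14 ± 0.23 in SP, each against Ab. Each SE was derived from the statistic of the edgeR test. For MMP7 it is narrower than the counting interval, so it understates the uncertainty. MMP7 passed the filter on low counts only through its NR and SP libraries. Since these are bulk libraries, fewer expressing cells and less RNA per cell cannot be told apart. The gene (ENSG00000137673) lies at chr11:102391239-102401481 on the minus strand of GRCh37, and no base of its exons is shared with another annotated gene.

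**Figure D1:**
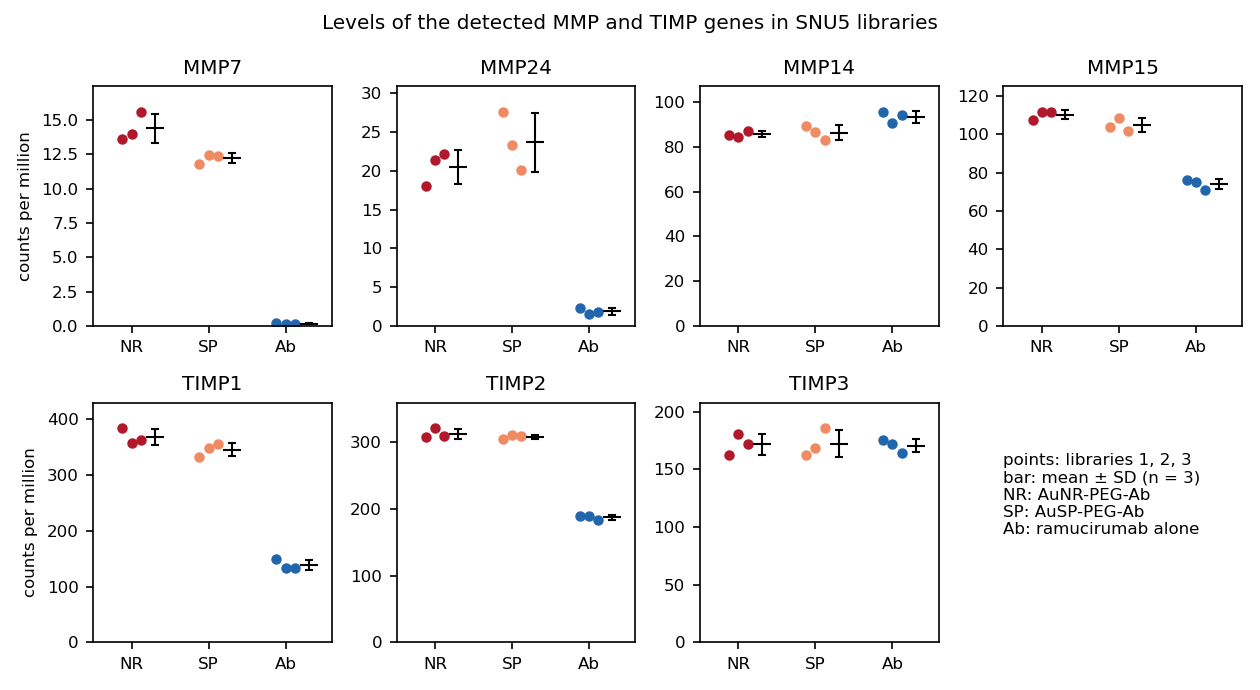
Levels of the 7 detected genes in each library, in CPM on linear axes that start at 0; points are libraries 1 to 3 of NR, SP and Ab, and the bar beside them is the mean ± SD (n = 3). MMP7 and MMP24 were close to 0 in Ab and above 10 CPM in NR and SP, TIMP1, TIMP2 and MMP15 were higher in NR and SP by smaller factors, and MMP14 and TIMP3 lay at like levels in all groups.

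The other secreted enzymes of the list were at or near the floor. MMP1, the interstitial collagenase, had 0, 0 and 3 counts in the NR libraries, 0 in each SP library and 2, 0 and 0 in the Ab libraries. MMP13, collagenase 3, had 1, 4 and 4 counts in the NR libraries, 2, 2 and 4 in the SP libraries and 3, 1 and 0 in the Ab libraries. MMP10, stromelysin 2, had 0 counts in all 9 libraries, which allows up to 0.216 CPM in the shallowest of them. No difference in these 3 genes was detectable at this depth. They lie beside MMP7 on chromosome 11, in a run of 9 MMP genes. Of these 9, 7 never had more than 3 counts in any library, and MMP13 never more than 4, so MMP7 was the one gene of the run with more than 4 counts.

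The 300 bases around the RefSeq start sites (250 before and 50 after, build GRCh38.p14) are printed for MMP7, the member with the largest difference, for its undetected neighbour MMP10, and for TIMP1 and MMP24, the other members called in both comparisons with Ab. RefSeq promoters matched 7 of the 10 members; MMP1, MMP13 and TIMP2 were not matched. Capitals mark every match, on either strand, to the AP-1 site TGANTCA, the TCF/LEF site CTTTGAA and the TATA box TATAAA, none of which overlap.
MMP7 (chr11:102530698-102530997, minus strand): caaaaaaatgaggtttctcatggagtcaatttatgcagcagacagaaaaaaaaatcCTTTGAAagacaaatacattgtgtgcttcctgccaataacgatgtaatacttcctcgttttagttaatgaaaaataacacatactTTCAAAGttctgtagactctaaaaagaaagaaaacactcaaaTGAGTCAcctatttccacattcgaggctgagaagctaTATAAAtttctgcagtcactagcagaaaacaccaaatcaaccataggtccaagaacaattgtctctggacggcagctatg
MMP10 (chr11:102780579-102780878, minus strand): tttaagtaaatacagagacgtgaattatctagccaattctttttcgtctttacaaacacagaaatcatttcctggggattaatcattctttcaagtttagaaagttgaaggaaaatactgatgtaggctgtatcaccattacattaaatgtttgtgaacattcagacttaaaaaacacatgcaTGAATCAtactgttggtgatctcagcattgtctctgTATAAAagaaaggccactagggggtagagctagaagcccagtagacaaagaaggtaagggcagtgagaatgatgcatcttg
TIMP1 (chrX:47582186-47582485, plus strand): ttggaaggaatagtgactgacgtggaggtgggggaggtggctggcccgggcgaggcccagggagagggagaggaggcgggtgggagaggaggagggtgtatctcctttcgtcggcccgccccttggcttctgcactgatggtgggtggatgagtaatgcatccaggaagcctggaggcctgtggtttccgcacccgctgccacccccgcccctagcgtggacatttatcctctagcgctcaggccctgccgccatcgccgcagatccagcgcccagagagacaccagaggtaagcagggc
MMP24 (chr20:35226440-35226739, plus strand): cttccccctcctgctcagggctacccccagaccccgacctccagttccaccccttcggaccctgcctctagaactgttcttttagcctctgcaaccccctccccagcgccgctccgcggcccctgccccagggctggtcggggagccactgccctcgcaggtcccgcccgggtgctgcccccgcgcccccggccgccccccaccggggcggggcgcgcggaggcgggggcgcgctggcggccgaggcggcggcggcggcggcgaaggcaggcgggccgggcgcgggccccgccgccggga

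In the MMP7 window the AP-1 letters began 67 bases before the start site, the TCF/LEF letters 194 and 109 bases before it and the TATA box 30 bases before it. The MMP10 window held the AP-1 letters at the same distance, 67 bases, and a TATA box at 31 bases, but no TCF/LEF letters. The windows of MMP14, MMP15, MMP24, TIMP1 and TIMP3 held none of the 3 motifs. Of 35116 RefSeq promoters of this length, 7.709% held TGANTCA, 4.428% held CTTTGAA and 11.53% held TATAAA. The MMP7 and MMP10 windows were poor in G and C, at 35.67% and 36.33%, against 80.0% for MMP24, 65.0% for TIMP1 and a median of 58.67% over all promoters. A match is a description of letters, and both the detected MMP7 and the undetected MMP10 hold the AP-1 letters.

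Among the genes within 1000 kb of MMP7, a window chosen after the values were seen, 10 protein-coding genes are not MMPs and 7 of these had enough counts for a test. BIRC3, an inhibitor of apoptosis, was the only one of these 7 past the limits used for calls, 2-fold or more with an adjusted p no higher than 0.05, and it was lower with both particles. Its level was 61.7 ± 5.1 CPM in NR, 60.2 ± 2.3 in SP and 126 ± 12 in Ab (mean ± SD, n = 3), a log2 difference of -1.06 for NR (edgeR, adjusted p = 1.102e-10) and -1.10 for SP (edgeR, adjusted p = 5.481e-15). The nearest gene, TMEM123, was higher by 0.51 and 0.47 on the log2 scale, and YAP1, a transcriptional coactivator of the Hippo pathway, differed by 0.02 and 0.07. With NR1 and Ab3 left out, BIRC3 was again called lower in both, and DYNC2H1, the heavy chain of a motor in cilia, was called higher in SP (1.06, edgeR adjusted p = 1.441e-08), against 0.99 with all libraries. With all libraries 0 of the 7 were called higher and 1 lower in each comparison. Of the 15009 genes tested in NR against Ab 12.4% were called higher and 10.3% lower, and of 15068 in SP against Ab 12.6% higher and 10.6% lower, so that 1 of 7 called lower is near the share of all genes.

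**Figure D2:**
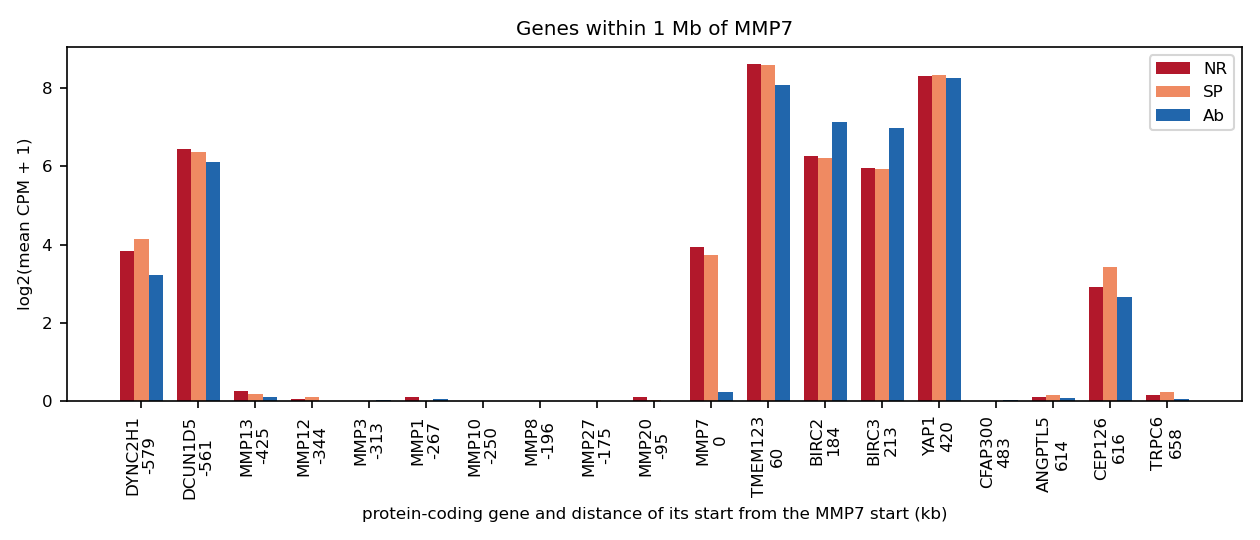
Mean level of each protein-coding gene within 1000 kb of MMP7, as log2(mean CPM + 1), in NR, SP and Ab (n = 3 each); the number under each name is the distance of its start from the MMP7 start in kb, positive in the direction of MMP7 transcription. MMP7 is the only MMP of the cluster with a visible bar in NR and SP, and BIRC2 and BIRC3 are taller in Ab.

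Of the membrane-type enzymes, MMP24 differed most. MMP24 (MT5-MMP), first known from the nervous system, had 18.0, 21.4 and 22.1 CPM in the NR libraries, 27.6, 23.3 and 20.1 in the SP libraries, and 2.30, 1.52 and 1.76 in the Ab libraries. The particle libraries did not overlap with the Ab libraries, and NR and SP overlapped with each other. The log2 difference was 3.45 ± 0.15 (SE) for NR and 3.67 ± 0.15 for SP, or 10.9-fold and 12.7-fold. The gene lies at chr20:33814493-33864801 on the plus strand of GRCh37, where 22.1% of its exonic sequence is also annotated as genes of the other strand, chiefly MMP24OS. The sources used here do not state whether counting used strand, so reads of MMP24 and MMP24OS may not be separated. MMP24OS had 376, 184 and 197 counts in the NR libraries, 337, 385 and 283 in the SP libraries and 59, 55 and 57 in the Ab libraries, and was itself called higher in NR (log2 difference 2.36, edgeR adjusted p = 3.035e-14) and in SP (2.55, edgeR adjusted p = 3.778e-15).

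MMP15 (MT2-MMP) was moderately higher with the particles. Its levels were 107.8, 111.6 and 111.9 CPM in the NR libraries, 103.9, 108.8 and 102.0 in the SP libraries, and 76.3, 75.2 and 71.1 in the Ab libraries. Every particle library was above every Ab library, and the log2 difference was 0.55 ± 0.05 (SE) for NR and 0.47 ± 0.06 for SP, short of 2-fold. MMP14 (MT1-MMP), the main activator of proMMP2 at the cell surface, went slightly the other way. Its levels were 85.4, 84.7 and 87.3 CPM in the NR libraries, 89.5, 86.5 and 82.9 in the SP libraries, and 95.8, 90.6 and 94.3 in the Ab libraries. The groups lay close to each other, with every particle library below every Ab library, and the log2 difference was -0.15 ± 0.05 for NR and -0.14 ± 0.06 for SP.

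TIMP1 was higher with the particles, and was the most abundant member of every group per kb of exon, though TIMP2 and TIMP3 had more CPM in Ab. TIMP1, a secreted inhibitor of most soluble MMPs that also acts as a growth factor, had 383.5, 356.5 and 362.3 CPM in the NR libraries, 331.9, 347.4 and 355.7 in the SP libraries, and 148.5, 133.0 and 133.7 in the Ab libraries. The particle libraries were all more than 2 times the highest Ab library, and the NR libraries were slightly above the SP libraries, with SP3 just under NR2. The log2 difference was 1.38 ± 0.05 (SE) for NR and 1.29 ± 0.05 for SP. TIMP1 (chrX:47441807-47446188 on GRCh37) lies in an intron of SYN1 on the other strand, and SYN1 had at most 3 counts in any library.

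TIMP2, which inhibits MMPs and also helps MMP14 to activate proMMP2, had 307.4, 321.1 and 309.7 CPM in the NR libraries, 304.8, 310.1 and 309.2 in the SP libraries, and 189.1, 189.6 and 183.5 in the Ab libraries. The particle groups did not overlap with Ab, and the log2 difference was 0.71 ± 0.04 (SE) for NR and 0.69 ± 0.04 for SP, again short of 2-fold. Other genes overlap 9.52% of its exonic sequence. They are CEP295NL on the same strand, which had at most 29 counts in a library, and ENSG00000267601 on the other strand, which shares more of it and had 0 counts in every library. TIMP3, the inhibitor that binds to the extracellular matrix and also blocks ADAM17, did not separate the groups. Its levels were 162.3, 180.7 and 171.8 CPM in the NR libraries, 162.6, 168.8 and 185.6 in the SP libraries, and 175.3, 171.9 and 164.1 in the Ab libraries, so that all 3 groups overlapped. The log2 difference was -0.02 ± 0.05 for NR and -0.01 ± 0.05 for SP.

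Thus 7 of the 10 members had enough counts for a fit, and MMP7, MMP24 and TIMP1 were called higher in NR against Ab and in SP against Ab, with 0 called lower in each. Over all genes tested, 12.4% were called higher and 10.3% lower in NR against Ab, and 12.6% were called higher and 10.6% lower in SP against Ab. With no fold minimum, 6 members were past the adjusted p in each comparison, MMP7, MMP24, TIMP1, TIMP2 and MMP15 upward and MMP14 downward, where 72.7% of all genes were past it in NR against Ab and 73.0% in SP against Ab. The members were chosen with these values known, and the comparisons share the Ab libraries, so nothing is read from these counts. Without NR1 and Ab3 the calls were again 3 and 3, and the log2 differences for NR were 6.31 for MMP7, 3.50 for MMP24 and 1.31 for TIMP1.

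Per kb of exon, a scale on which levels of different genes can roughly be set side by side, the order changed between groups. The length is that of all annotated exons of a gene together, not of the transcripts expressed. Close ranks and the sums below depend on this, and for MMP24 also on the exonic sequence shared with the other strand. In NR the mean levels were 254 CPM per kb for TIMP1, 50.4 for TIMP2, 37.3 for TIMP3, 26.1 for MMP15, 18.6 for MMP14, 6.21 for MMP7 and 4.69 for MMP24, and no neighbours in this order overlapped. In Ab they were 95.7 for TIMP1, 37.1 for TIMP3, 30.2 for TIMP2, 20.2 for MMP14, 17.5 for MMP15, 0.425 for MMP24 and 0.0717 for MMP7, again with no overlap between neighbours. TIMP2 and TIMP3 thus changed places, as did MMP15 and MMP14, and MMP7 and MMP24. In SP the order was that of NR except that MMP24 at 5.41 and MMP7 at 5.27 CPM per kb overlapped. MMP13, MMP1 and MMP10 were below 0.07 CPM per kb in every group mean.

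Summed over the 23 MMP genes listed, the level was 63.3 ± 2.3 CPM per kb in NR, 61.3 ± 2.0 in SP and 45.9 ± 1.2 in Ab (mean ± SD, n = 3). Summed over the 4 TIMP genes it was 353 ± 7 in NR, 338 ± 11 in SP and 170 ± 7 in Ab. The ratio of the TIMP sum to the MMP sum was 5.58 ± 0.31 in NR, 5.52 ± 0.35 in SP and 3.70 ± 0.06 in Ab. TIMP1 made up 72.1% of the TIMP sum in NR, 70.6% in SP and 56.2% in Ab, and MMP14 made up 29.3%, 30.5% and 44.1% of the MMP sum. These are sums of RNA levels per exon length, in which most of the MMP sum came from MMP14 and MMP15 in all 9 libraries.

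Rods and spheres gave close values for every member. Of the 7 members fitted in NR against SP, 0 were called, beside 0.0201% of 14903 genes called in either direction, and 0 were past the adjusted p with no fold minimum, beside 0.443% of genes. DESeq2 also called 0 members, and nothing is read from these counts. The log2 difference between NR and SP was 0.23 ± 0.10 (SE) for MMP7 and 0.09 ± 0.04 for TIMP1. It was -0.22 ± 0.10 for MMP24, whose SP libraries were spread from 20.1 to 27.6 CPM. For MMP14, MMP15, TIMP2 and TIMP3 it was -0.01 ± 0.05, 0.07 ± 0.05, 0.02 ± 0.04 and -0.01 ± 0.05. For MMP7 and TIMP1 all 3 NR libraries were above all 3 SP libraries, for TIMP1 by less than the SD of either group, and for the other members the libraries overlapped. The share of all genes that separate NR from SP in this way was not counted, so no rod effect is read from this.

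Of the 17 other MMP and TIMP genes, 8 never had more than 3 counts in any library. In NR against Ab 6 were tested, of which 1 was called higher and 1 lower, with a median log2 difference of -0.05 beside -0.0055 over all genes tested. In SP against Ab 7 were tested, of which 2 were called higher and 4 lower, with a median of -1.08 beside -0.0067 over all genes. The shares of all genes called were 12.4% higher and 10.3% lower in NR, and 12.6% and 10.6% in SP. Without NR1 and Ab3 the calls were 4 in NR and 7 in SP. MMP28 (epilysin), a secreted enzyme of epithelia, had 250, 130 and 167 counts in the NR libraries, 202, 207 and 180 in the SP libraries and 8, 18 and 13 in the Ab libraries. All particle libraries were far above all Ab libraries, and the log2 difference was 4.04 ± 0.20 (SE) for NR and 3.92 ± 0.20 for SP. At so few Ab counts this SE may also be too small. With 8 counts in Ab1, MMP28 needed its particle libraries to pass the filter on low counts, so no p-value is given.

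MMP23B, a transmembrane enzyme that lacks the usual hemopexin domain, was lower, with 4, 0 and 4 counts in the NR libraries, 3, 9 and 2 in the SP libraries and 30, 49 and 35 in the Ab libraries. It was called lower in NR and in SP, but passed the filter on low counts only through its Ab libraries, so no p-value is given. With so few particle counts the size of the fall is loosely known. From summed counts, the level in Ab was 11.8 times that in NR (exact 95% counting interval 5.80 to 28.1) and 7.93 times that in SP (4.54 to 14.97). MMP23B has a near-identical copy, MMP23A, so that its reads may not be fully assigned. MMP17 (MT4-MMP), which is anchored by a lipid, had 9.97 ± 0.82 CPM in NR, 8.42 ± 1.4 in SP and 18.9 ± 1.6 in Ab (mean ± SD, n = 3). It was called lower in SP (log2 difference -1.19, edgeR adjusted p = 2.949e-10) and was just short of 2-fold in NR (-0.95, edgeR adjusted p = 2.376e-09). TIMP4 rose by less than 2-fold, by 0.54 in NR (edgeR, adjusted p = 8.336e-05) and 0.74 in SP (edgeR, adjusted p = 4.269e-07) on the log2 scale.

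The 2 gelatinases stood low in all groups. MMP9 had 1.99 ± 0.76 CPM in NR, 1.38 ± 0.17 in SP and 2.87 ± 0.12 in Ab, and was called lower only in SP (log2 difference -1.08, edgeR adjusted p = 9.492e-05), against -0.63 in NR (edgeR, adjusted p = 0.02218). MMP2 had 9, 1 and 0 counts in the NR libraries, 5, 13 and 4 in the SP libraries and 18, 27 and 7 in the Ab libraries, low in Ab3 as the stromal genes above were. Its call in SP (-1.21, edgeR adjusted p = 0.02509) was lost without SP1, without SP3, without Ab1 and without Ab2, where the log2 differences were -1.01, -0.94, -1.08 and -0.91, and under DESeq2. MMP19, a secreted MMP, had 100, 64 and 76 counts in the NR libraries, 155, 130 and 96 in the SP libraries and 45, 63 and 53 in the Ab libraries, and was called higher in SP (1.25, edgeR adjusted p = 6.432e-07) and was at 0.84 in NR (edgeR, adjusted p = 0.0001967). Genes on the other strand overlap 18.4% of the exonic sequence of MMP9, 17.6% of that of MMP19 and 14.2% of that of TIMP4. The share of their reads that this touches is not known. SLC12A5-AS1, which overlaps MMP9, had 28, 29 and 12 counts in the NR libraries, 32, 23 and 24 in the SP libraries and 9, 12 and 6 in the Ab libraries. It was called higher (1.61 and 1.55), opposite in direction to MMP9, but passed the filter on low counts only through its particle libraries, so no p-value is given. MMP11 had 0.553 and 0.429 CPM in NR and SP and 1, 1 and 0 counts in the Ab libraries. Its ratio to Ab from summed counts was 16.9 in NR (exact 95% counting interval 4.25 to 146) and 14.4 in SP (3.62 to 124), and it was not tested in either comparison. No difference between NR and SP was called among the 6 of these genes tested there, and edgeR put 1, MMP19, under an unadjusted p of 0.05 and DESeq2 0 past its adjusted p.

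**Figure D3:**
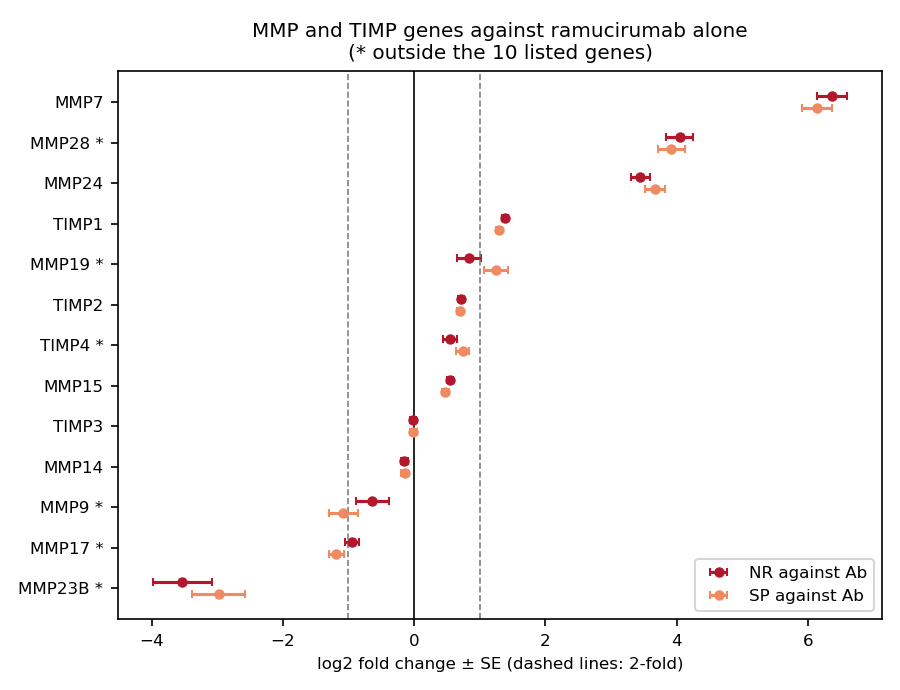
Log2 difference from Ab for the 13 MMP and TIMP genes tested in both comparisons (points, with bars of ± SE; NR and SP each against the same 3 Ab libraries); dashed lines mark 2-fold and an asterisk marks genes outside the 10 members. MMP7, MMP28, MMP24 and TIMP1 lie above 2-fold in both comparisons, MMP23B below, and TIMP3 and MMP14 close to 0. Bars of genes with few counts in a group, such as MMP7, may be shorter than counting error alone gives.

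The genes for proteins that activate or restrain MMPs moved in both directions. Of 17 listed, 14 were tested. NR had 4 called higher and 2 lower, beside 12.4% and 10.3% of all genes. SP had 5 higher and 3 lower, beside 12.6% and 10.6%, and the median log2 differences were -0.08 and 0.01. PLAU (urokinase), which turns plasminogen into plasmin, fell from 38.3 ± 3.8 CPM in Ab to 9.56 ± 0.58 in NR (log2 difference -2.03, edgeR adjusted p = 1.144e-17) and 10.7 ± 0.1 in SP (-1.87, edgeR adjusted p = 6.355e-17), although C10orf55 on the other strand overlaps 31.0% of its exonic sequence. ST14 (matriptase), a membrane serine protease of epithelia, rose from 13.6 ± 0.2 CPM in Ab to 56.7 ± 5.0 in NR (2.03, edgeR adjusted p = 2.253e-19) and 53.1 ± 5.7 in SP (1.94, edgeR adjusted p = 6.022e-18). Without NR1 and Ab3, 7 were called in NR and 8 in SP. The balance turned in NR at 1.5-fold, to 4 higher and 5 lower, and with no fold minimum, to 5 and 7, and in SP with at least 10 counts in every library, to 2 and 3. CD44, a hyaluronan receptor that docks MMPs at the surface, was at -0.92 in NR (edgeR, adjusted p = 7.605e-17) and at the 2-fold limit in SP (edgeR, adjusted p = 8.234e-17). Among genes singled out after their values were seen, RECK, a membrane-anchored MMP inhibitor, had 94, 45 and 59 counts in the NR libraries, 73, 86 and 56 in the SP libraries and 8, 15 and 19 in the Ab libraries. RECK was called higher in both, and needed its particle libraries to pass the filter on low counts. A2M, a broad protease trap, had 1 count in each Ab library and its ratio to Ab from summed counts was 44.6 in NR (exact 95% counting interval 14.9 to 219) and 57.8 in SP (19.4 to 283). FURIN, which opens the membrane-type proenzymes, was at -0.61 and -0.55.

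Among the AP-1 and ETS factors, which bind MMP promoters, more were called lower than higher with the particles. All 13 were tested. NR had 1 called higher and 6 lower, beside 12.4% and 10.3% of all genes, SP had 2 higher and 6 lower, beside 12.6% and 10.6%, and the medians were -0.90 and -0.98. FOSL1, a FOS-family partner in AP-1, fell from 384 ± 18 CPM in Ab to 39.5 ± 1.6 in NR (log2 difference -3.30, edgeR adjusted p = 3.234e-27) and 44.6 ± 0.6 in SP (-3.13, edgeR adjusted p = 2.461e-26). JUN, the main JUN-family partner, fell from 366 ± 13 to 107 ± 0.3 and 114 ± 3 CPM (-1.80 and -1.71, edgeR adjusted p = 3.209e-23 and 7.759e-22). ATF3, a stress-induced factor that pairs with JUN, was at -1.57 and -1.36 (edgeR, adjusted p = 5.42e-19 and 8.176e-17), and ETV5, an ETS factor of the PEA3 group, at -1.53 and -1.50 (edgeR, adjusted p = 1.044e-18 and 2.541e-17). FOS went the other way, from 6.68 ± 0.28 CPM in Ab to 20.9 ± 0.35 in NR (1.61, edgeR adjusted p = 2.182e-14) and 21.7 ± 3.3 in SP (1.67, edgeR adjusted p = 2.64e-13). ELF3, an ETS factor of epithelia, was the other gene called higher in SP, at 1.03, and was at 0.98 in NR, although other genes overlap 18.5% of its exonic sequence. Without NR1 and Ab3, 8 factors were called in NR and 8 in SP.

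**Figure D4:**
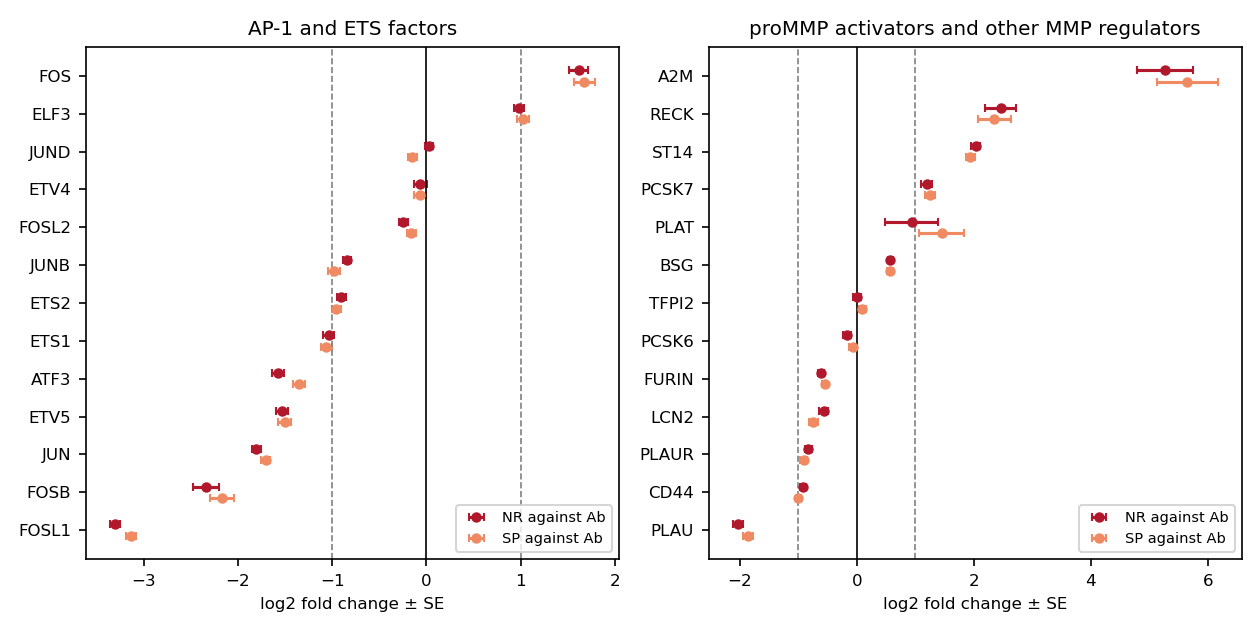
Log2 difference from Ab (points, with bars of ± SE, for NR and SP) for the tested AP-1 and ETS factors (left) and 13 of the 14 tested activators and regulators of MMPs (right); dashed lines mark 2-fold. FOSL1, FOSB and JUN lie at the low end and FOS at the high end on the left, and PLAU at the low end and A2M, RECK and ST14 at the high end on the right. Bars of genes with few counts in a group, such as A2M, may be shorter than counting error alone gives.

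The related ADAM and ADAMTS proteases, which shed surface proteins or cut proteoglycans, were tested for 16 of 28 genes in NR and 15 in SP. In NR 4 were called higher and 1 lower, beside 12.4% and 10.3% of all genes, and in SP 3 higher and 1 lower, beside 12.6% and 10.6%. The medians were 0.41 and 0.37, beside -0.0055 and -0.0067 over all genes tested. The calls came to 5 and 6 without NR1 and Ab3. ADAMTS7, which cuts cartilage matrix proteins, rose from 8.18 ± 0.20 CPM in Ab to 22.0 ± 1.1 in NR (log2 difference 1.41, edgeR adjusted p = 1.736e-13) and 26.2 ± 0.3 in SP (1.66, edgeR adjusted p = 1.861e-15). ADAMTS15 rose by 1.57 and 1.74 (edgeR, adjusted p = 2.176e-13 and 1.045e-13), and ADAMTS6 by 2.74 and 2.56. With 15, 8 and 15 counts in the Ab libraries, ADAMTS6 needed its particle libraries to pass the filter on low counts, so no p-value is given. ADAM9, a membrane sheddase, was higher by less than 2-fold, by 0.54 and 0.57 (edgeR, adjusted p = 1.401e-10 and 9.589e-11). ADAM8, called lower in both, had 1.38 ± 0.25, 1.04 ± 0.19 and 3.87 ± 0.02 CPM in NR, SP and Ab.

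Of 25 genes for matrix and surface substrates, 23 were tested against Ab. NR had 3 called higher and 1 lower, beside 12.4% and 10.3% of all genes. SP had 3 of each, beside 12.6% and 10.6%, and the medians were -0.08 and -0.13. The balance in NR depended on the fit, with 3 higher and 4 lower under DESeq2, with all 9 libraries in one fit and with the replicate number as a block, 3 and 5 with no filter, 4 and 5 at 1.5-fold, and 3 and 6 without Ab3, alone or with NR1. In SP, 3 higher and 5 lower were called without Ab3, alone or with NR1, and 3 and 1 without SP2 or without Ab2. COL7A1, the collagen of anchoring fibrils, fell from 1989 ± 83 CPM in Ab to 367 ± 12 in NR (log2 difference -2.46, edgeR adjusted p = 1.593e-26) and 364 ± 15 in SP (-2.48, edgeR adjusted p = 1.82e-25). VTN (vitronectin) rose from 1.29 ± 0.34 CPM in Ab to 13.7 ± 0.9 in NR (3.38, edgeR adjusted p = 1.796e-16) and 13.1 ± 0.55 in SP (3.33, edgeR adjusted p = 2.826e-16), although other genes overlap 17.3% of its exonic sequence. LAMA5, a basement membrane laminin chain, was at -0.94 and -0.83 (edgeR, adjusted p = 1.683e-14 and 1.498e-14), and COL6A1 at 0.86 and 0.84 (edgeR, adjusted p = 1.381e-13 and 4.879e-13), all short of 2-fold.

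By likeness over the 9 libraries (Pearson's r of log2 CPM against 10763 genes with a mean of at least 100 counts), the genes whose pattern was nearest to MMP7 were IFITM3, GRN and PEBP1, at r of 0.99953, 0.9995 and 0.99946, and 2489 genes had r of at least 0.95. For MMP14 the nearest were CTNS, LINC00707 and SLX9, at r of 0.97654, 0.97615 and 0.97531, and 37 genes reached 0.95. The points share 9 libraries in 3 groups, so these values describe how each gene separates the groups.

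Marker genes of several cell types moved with the groups too. Calls in each marker list stand beside 12.4% of all genes higher and 10.3% lower in NR, and 12.6% and 10.6% in SP. The 12 gastric epithelial markers summed to 2466 to 2665 CPM in the NR and SP libraries and to 1054 to 1126 in Ab. KRT8, a simple epithelial keratin and the most abundant of them, was at 1894 ± 38 CPM in NR, 1982 ± 48 in SP and 648 ± 16 in Ab. CDH1, the epithelial cadherin, was called higher (log2 difference 4.27 and 4.52), with 5, 5 and 9 counts in the Ab libraries. It passed the filter on low counts only through its particle libraries, so no p-value is given. MUC1, a membrane mucin, was also called higher (1.86 and 1.86, edgeR adjusted p = 4.218e-22 and 6.053e-21), and MUC5AC, the mucin of the gastric surface, lower (-2.15 and -1.75, edgeR adjusted p = 8.645e-22 and 0.007456). In all 4 were called higher and 2 lower of 9 tested in each comparison, and 6 were called in each without NR1 and Ab3.

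The 10 fibroblast markers summed to 116.9, 110.0 and 106.9 CPM in the NR libraries, 117.3, 123.8 and 125.0 in the SP libraries, and 51.4, 48.5 and 20.2 in the Ab libraries. LUM, DCN, PDGFRB and FAP, 4 of 8 tested, were called higher in both comparisons, whereas COL1A2 and POSTN were lower in the particle libraries than in Ab1 and Ab2, and THY1 had at most 1 count. DCN, PDGFRB and FAP needed their particle libraries to pass the filter on low counts. With NR1 and Ab3 left out, 7 were called in NR, of which 4 higher, and 6 in SP, of which 4 higher. LUM, a matrix proteoglycan, had 37.5 ± 0.7, 38.6 ± 0.5 and 0.928 ± 0.021 CPM in NR, SP and Ab. Of the 10 macrophage and leukocyte markers, PTPRC, CD68, CD163, MRC1, CD3E and MS4A1 had at most 2 counts in a library, although 85.6% of the exonic sequence of CD68 is shared with other genes, so that its count is uncertain. The list summed to 3.11 to 6.09 CPM in the particle libraries, mostly from CSF1R, and to 0.618 to 1.33 in Ab, where CD14 was the most abundant. CSF1R was called higher (4.10 and 4.25), with 3, 8 and 3 counts in the Ab libraries. It passed the filter on low counts only through its particle libraries, so no p-value is given. CD14, a monocyte receptor, had 2, 7 and 3 counts in the NR libraries, 4, 1 and 4 in the SP libraries and 21, 13 and 8 in the Ab libraries. It was called lower in NR (-1.52, edgeR adjusted p = 0.0201), with adjusted p = 0.1257 under DESeq2, 0.07675 without NR3 and 0.1638 without Ab1 (edgeR). The filter on low counts left it untested in SP, and in NR without NR1 and Ab3. In that leave-out 1 marker of this list was called in NR and 2 in SP, of which 1 higher. The 6 endothelial markers summed to 47.3 to 55.1 CPM in the particle libraries and 32.5 to 33.3 in Ab. ESAM, the most abundant of them, was at like levels, 31.4 CPM in NR, 28.9 in SP and 28.6 in Ab (log2 difference 0.11 and -0.01). CDH5 was called higher (2.35 and 2.35, edgeR adjusted p = 4.111e-16 and 7.115e-16), VWF had 0, 0 and 1 counts in the Ab libraries and ratios to Ab of 91.6 in NR (exact 95% counting interval 15.9 to 3663) and 97.5 in SP (17.1 to 3891), and TEK and CLDN5 had at most 3 and 4 counts. Of this list 2 were called higher in each comparison, with and without NR1 and Ab3. Between 4.36% and 4.66% of counts were mitochondrial in the particle libraries, and between 3.41% and 3.71% in Ab. The part of these differences in the MMP and TIMP levels was not tested.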

How the data were processed

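Per the labels and the methods, the authors filtered the reads for adapters, undetermined bases and quality, aligned them with HISAT2 2.1.0 and made one table of raw counts per Ensembl gene for each group. The build is given as hg19, while the processing notes list mm9. Annotation release, strand setting and batches are not given in the sources used here. A version suffix was carried by 10363 IDs and was removed where the ID stayed unique, after which 59858 of 60880 IDs matched GENCODE 44 on GRCh37. The other 1022 took up to 0.1147% of a library.

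Groups were compared in pairs, on 6 libraries each, with edgeR 4.0.16 in R 4.3.3 (TMM scaling, filterByExpr with a minimum count of 10 and a minimum total of 15, robust quasi-likelihood test, Benjamini-Hochberg adjustment over all genes tested), after the steps were tested on simulated data. DESeq2 1.42.0, RLE size factors, no filter, at least 10 counts in every library, all 9 libraries in one fit, a replicate block, other fold minimums and each library left out in turn were alternatives. Log2 CPM for likeness had a prior count of 2. Each SE of a log2 difference is that difference, without its sign, divided by the square root of the F statistic of the edgeR test. At few counts it can be smaller than counting error. Between libraries of the same group, the chi-square per gene was 1.84 (NR2 and NR3) to 7.43 (Ab1 and Ab2), more than sampling noise gives. The members, the 9 other gene lists and the tests were chosen with earlier results of these data known. All members are named, and from each other list the 4 genes (fewer where fewer were tested) with the smallest adjusted p in NR against Ab and no overlap between libraries. Any other gene named was picked with its values known. The values of 1 listed gene are not reported here. PECAM1 of the endothelial list was not matched. Promoters came from RefSeq (GRCh38.p14). Python 3.11.15 with numpy 2.4.6, pandas 2.3.3, scipy 1.17.1 and matplotlib 3.10.9 served for tables and figures.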

Additional observations from a re-analysis of the deposited data

Results flagged for a closer look

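A difference between the NR and SP groups passed edgeR's adjusted p of 0.05 for 3 listed genes, all under 2-fold. Over all genes tested, 66 of 14903 (0.443%) passed it. The lists were chosen with earlier results of these data known, so nothing is read from this count. FN1, fibronectin, was lower in NR, at 168 ± 8 CPM against 195 ± 11 in SP (mean ± SD, n = 3), a log2 difference of -0.22 (edgeR, adjusted p = 0.02561). COL5A1, a chain of collagen V, was lower in NR by the same measure, at 697 ± 30 against 779 ± 19 CPM and a log2 difference of -0.16 (edgeR, adjusted p = 0.04743). JUND, an AP-1 subunit, was higher in NR, at 181 ± 1 against 160 ± 8 CPM and a log2 difference of 0.18 (edgeR, adjusted p = 0.04701). Under DESeq2 the adjusted p was 0.004223 for FN1, 0.002975 for COL5A1 and 0.009806 for JUND, and with no filter it was 0.000306, 0.002276 and 0.008684. With all 9 libraries in one fit it was 0.7377, 0.09035 and 0.07785, at log2 differences of -0.21, -0.16 and 0.18. With the replicate number as a block it was 0.0275, 0.09886 and 0.07912, and with RLE size factors 0.0254, 0.05074 and 0.04398. With each library left out in turn, the adjusted p exceeded 0.05 in 4 of 6 fits for FN1 and in 5 of 6 each for COL5A1 and JUND. It ranged from 0.006727 to 0.1433, from 0.0334 to 0.1526 and from 0.04961 to 0.1614, while the log2 differences kept their sign, at -0.18 to -0.26, -0.13 to -0.19 and 0.15 to 0.22.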

How the results depend on the processing

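All 271 recomputed log2 differences of the members kept their direction and their side of the call, and the counts of members called stayed at 3 and 3 except with no fold minimum, at 6 and 6, at 1.5-fold, at 4 and 4, and with at least 10 counts in every library, where MMP7 was not tested and 2 and 2 were called. Of 1436 recomputed values of other named genes 0 reversed, 31 lost a call and 4 gained one. CD44 lost its call in SP under DESeq2, RLE size factors, no filter and without SP1, and MMP17 gained one in NR without NR3 (-1.02) and without Ab2 (-1.01). Other MMP and TIMP genes called in NR against Ab, 2 in the report, were 4 under DESeq2, with no filter, with all 9 libraries in one fit and without NR1 and Ab3, 0 with at least 10 counts in every library, 6 with no fold minimum, 5 at 1.5-fold and 3 to 4 with each library left out. In SP against Ab, 6 became 3 with at least 10 counts. Genes called in all, 3409 in NR against Ab and 3502 in SP against Ab, became 10916 and 11002 with no fold minimum and 6348 and 6385 at 1.5-fold. In NR against SP, 3 became 0 under DESeq2, 27 with no filter, 66 with no fold minimum, 5 at 1.5-fold, 28 without NR1 and Ab3, and 0 to 28 with each library left out, 28 without NR1. The replicate numbers do not pair the libraries (correlations of deviations -0.22 to 0.10), and with the number as a replicate block 3, 3 and 0 members, 2, 6 and 0 other MMP and TIMP genes and 3414, 3493 and 4 genes in all were called. With this block, substrates called in NR were 7 in place of 4, as they were under DESeq2 and with all 9 libraries in one fit, and 8 with no filter, with 3 called higher in each of these fits. The causes of these changes were not tested. Depth limits what can be said of MMP1, MMP10 and MMP13.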
